A study of Mus musculus with 16 samples.

Results

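MI6 and MI7 are 2 mouse mammary tumour cell lines that carry the same transgene, d16HER2, which encodes a HER2 receptor without the stretch of exon 16. They were compared here with each other, gene by gene. The arrays were chosen by the cell line named in the labels, which gave 8 of the 16 arrays of the series, 4 of MI6 and 4 of MI7. The other 8 arrays hold WTHER2-1 and WTHER2-2, transgenic mammary tumour lines with full-length WT HER2, and are used only to place the genes that separate MI6 from MI7. Mouse strain, age, the promoter of the transgene, the number of tumours behind each line and any treatment are not given in the sources used here. A difference between MI6 and MI7 is a difference between these lines and cannot be credited to a change in the transgene, which both share.

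HER2 is a receptor tyrosine kinase of the epidermal growth factor receptor family that signals through the MAPK, PI3K and SRC pathways. The d16HER2 form readily makes stable dimers through disulphide bonds and drives mammary tumours in transgenic mice. Mammary epithelium has a luminal layer, which can make milk, and a basal or myoepithelial layer with its own keratins and contractile proteins, and tumour lines can keep programmes of either layer or take on genes of mesenchymal cells, such as those for fibronectin and vimentin.

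The largest fitted log2 differences among the named genes were those of Tfap2b, a transcription factor of the AP-2 family, higher in MI6, and Mmp14, a membrane-bound matrix metalloprotease, higher in MI7. Tfap2b was not detected in MI7, so its fold is a bound, and Cdkn2b had the largest difference towards MI6 among those detected in both lines. The promoters of Tfap2b and Mmp14 are printed because these genes head the fit, from 250 bases before to 50 after the first listed start site, in RefSeq's assembly GRCm38.p6. Both lie on the plus strand, Tfap2b at chr1:19211804-19212103 and Mmp14 at chr14:54431348-54431647. Capitals mark each CpG, the dinucleotide CG, which reads the same on both strands.
Tfap2b: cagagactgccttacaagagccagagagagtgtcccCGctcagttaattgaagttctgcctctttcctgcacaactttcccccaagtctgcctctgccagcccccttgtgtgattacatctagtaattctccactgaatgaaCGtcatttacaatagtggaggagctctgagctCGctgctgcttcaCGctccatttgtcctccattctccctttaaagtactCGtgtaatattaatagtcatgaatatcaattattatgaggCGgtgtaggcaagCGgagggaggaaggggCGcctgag
Mmp14: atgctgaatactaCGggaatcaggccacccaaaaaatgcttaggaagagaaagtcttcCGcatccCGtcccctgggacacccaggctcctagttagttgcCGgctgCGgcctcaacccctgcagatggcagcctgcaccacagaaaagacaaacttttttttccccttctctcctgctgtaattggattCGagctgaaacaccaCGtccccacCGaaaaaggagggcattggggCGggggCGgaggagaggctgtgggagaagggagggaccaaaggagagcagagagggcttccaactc
The Tfap2b promoter held 8 CpG and a GC content of 48.3%, and that of Mmp14 held 10 CpG and a GC content of 56%. The median was 21 CpG over the 8059 tested genes with a listed promoter, 99.2% of which held at least 1. Genes at least 2-fold higher in MI6 had a median of 9 CpG (77 of 106 had a promoter), and those at least 2-fold higher in MI7 a median of 13.5 (106 of 154). The medians of both sets were thus below that of all promoters, with an upper quartile of 21 CpG in each, and genes without a listed promoter are not covered. Neither methylation nor factor binding was measured.

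Each line was measured on the same 2 Illumina BeadChips, slides that each hold several arrays, with 2 arrays of each line on each slide. MI6 always took positions A and D and MI7 positions C and F, so the position on the slide and the line cannot be told apart. No label states that a line's arrays came from separate cultures, so the p-values measure the spread between these arrays, which may be technical. Levels are given as log2 intensity after background correction and quantile normalization, and a difference is MI6 minus MI7 with the standard error of the limma fit. Of 45281 probes, 38.8% to 40.6% were detected per array, and 9907 genes were tested. The cells were epithelial by their markers: 8 of 9 mammary epithelial genes, among them Krt8, Krt18, Cdh1 and Epcam, were detected on all 8 arrays, and Krt19 on none. Most markers of other cell types were detected on no array, namely 8 of 13 for fibroblasts, 10 of 12 for immune cells (Ptprc and Adgre1 among them), 6 of 10 for endothelium (Pecam1 and Cdh5 among them), 6 of 7 for adipocytes, 7 of 9 for muscle and 4 of 4 for erythroid cells.

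MI6 and MI7 differed in 385 of the 9907 genes (3.89%) at a Benjamini-Hochberg adjusted p under 0.05 in limma. Of these, 179 (1.81% of those tested) were higher in MI6 and 206 (2.08%) higher in MI7. At least 2-fold differences were found for 260 genes (2.62%), 106 (1.07%) higher in MI6 and 154 (1.55%) higher in MI7, and 20 of them were over 8-fold. The 4 arrays of one line lay entirely above the 4 of the other for 991 of all genes tested (10.0%), for 377 of the 385 and for 255 of the 260. Summed over all genes, the line accounted for 36.3% of the squared deviations, the BeadChip 10.4% and the remainder 53.2%, so arrays of a line also differed among themselves. Within BeadChip 1 alone, with 2 arrays a line, limma called 114 genes, and within BeadChip 2 alone 22. The count was 160 when the spread was taken from all 4 lines on 16 arrays, 1051 with arrays at the same order on a BeadChip as a block, which is no known pairing, and 1023 with array weights.

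**Figure D1:**
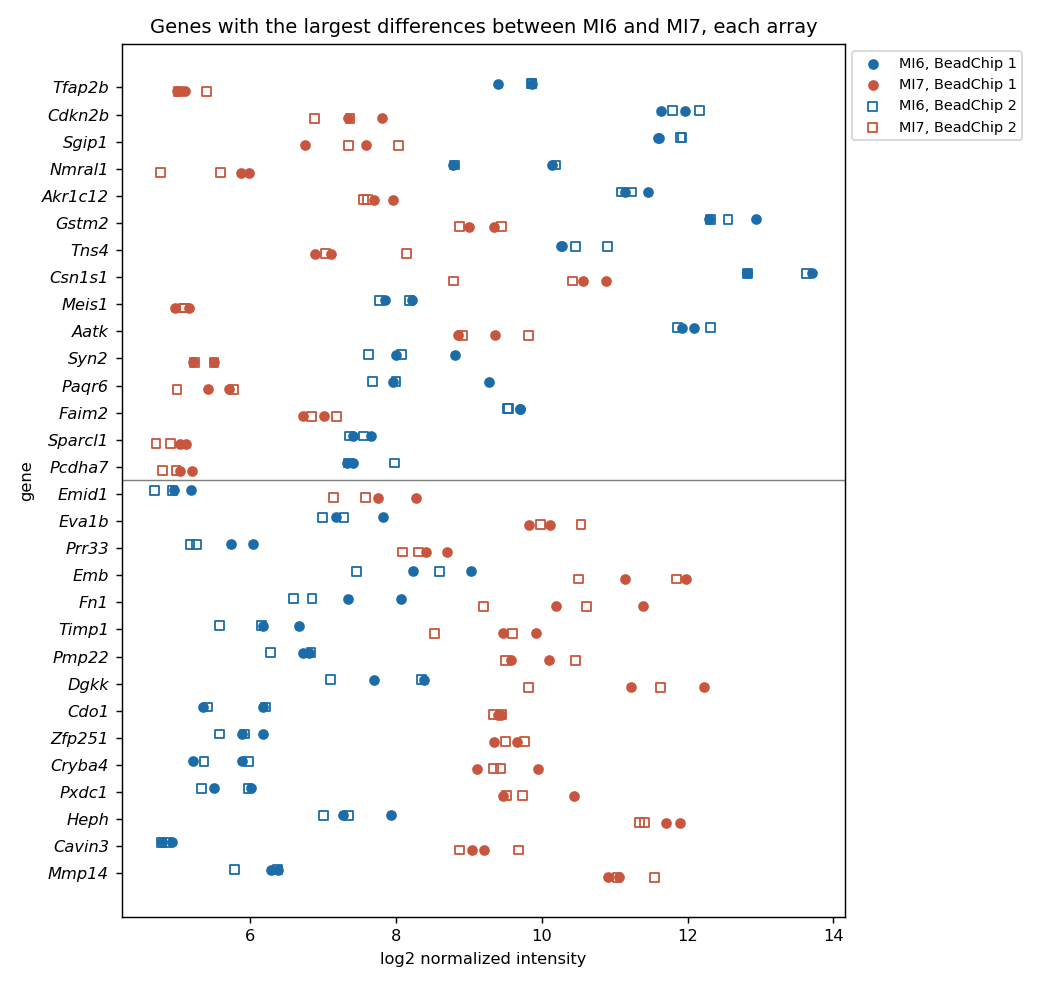
Log2 normalized intensity (x axis) of the 15 genes with the largest differences in each direction (y axis), one point per array, with filled circles for BeadChip 1 and open squares for BeadChip 2. The upper 15 genes were higher in MI6 and the lower 15 in MI7, and the arrays of the lines do not overlap for any of the 30.

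The largest differences towards MI6 included a developmental transcription factor and an inhibitor of the cell cycle. Tfap2b measured 9.39, 9.86, 9.86 and 9.86 on the MI6 arrays and 5.0, 5.09, 5.39 and 5.01 on the MI7 arrays. It was detected on every MI6 array and on no MI7 array, so its fold is a lower bound, at least 17.4-fold, set by the dimmest intensity that counted as detected (adjusted p = 2.85e-06 in limma). Other Tfap2b probes differed by 1.59 to 3.83, all higher in MI6. Cdkn2b, which encodes the CDK4 and CDK6 inhibitor p15, measured 11.96, 11.63, 11.79 and 12.16 in MI6 and 7.81, 7.34, 7.37 and 6.88 in MI7. It was detected on all 8 arrays, and the difference of 4.54 ± 0.21 is 23.2-fold (adjusted p = 4.5e-06). Cdkn1c, which encodes the CDK inhibitor p57 and is an imprinted gene, went the other way (difference -1.80 ± 0.25, adjusted p = 0.00306 in limma). It measured 4.86, 5.24, 5.16 and 6.02 in MI6, where 1 of the 4 arrays detected it, and 6.85, 7.0, 6.86 and 7.76 in MI7. Cdkn2b and Cdkn1c were the 2 called members among 12 measured D cyclins and CDK inhibitors, whose median difference was -0.07 (0.13 without MI6 replicate 1 and 0.11 without MI6 replicate 4), against 0.006 over all genes tested.

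Other transcription factors joined Tfap2b on the MI6 side. Meis1, a homeodomain partner of Hox proteins, measured 7.85, 8.21, 8.18 and 7.77 in MI6 and was detected on no MI7 array (5.16, 4.96, 5.09 and 5.07), at least 5.20-fold higher. Foxa1, the forkhead factor that opens chromatin for hormone receptors in luminal cells, measured 7.75, 8.37, 7.97 and 7.52 in MI6 against 6.32, 6.08, 5.86 and 5.59 in MI7 (difference 1.94 ± 0.19, adjusted p = 0.000492). Of 33 Hox genes with a probe, 12 passed the detection filter. Of these, 4 were called, all higher in MI6, while 3.89% of all genes tested were called in either direction. Hoxb6 and Hoxb7 passed that filter through their MI6 arrays alone, which favours a count towards MI6. The median was 0.24 over the 12, 0.36 without MI6 replicate 3 and 0.13 with no background correction. Over the members detected on all 8 arrays it was 0.11. Hox genes set position along the body axis and lie in clusters. Hoxb7 measured 6.53, 6.45, 6.26 and 6.75 in MI6 and 4.67, 4.71, 4.64 and 4.62 in MI7, where it was not detected, at least 1.84-fold higher. Hoxb6, also detected on no MI7 array, was at least 2.23-fold higher, and Hoxb5, detected on all 8 arrays, differed by 1.49 ± 0.20 (adjusted p = 0.00222). Those 3 are neighbours in 1 cluster, while Hoxa7 (difference 1.50 ± 0.20, adjusted p = 0.00234) belongs to another. Hoxa7 was detected on 1 of the 4 MI7 arrays. Hoxb5, Hoxb6 and Hoxb7 averaged 4.70 to 5.39 in the WT lines, while Hoxa7 averaged 6.53 in WTHER2-1 and 10.31 in WTHER2-2.

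Several detoxification genes were higher in MI6. Gstm2, a glutathione S-transferase, measured 12.94, 12.30, 12.31 and 12.55 in MI6 and 9.34, 9.0, 8.87 and 9.45 in MI7, a 10.3-fold difference (3.36 ± 0.19, adjusted p = 1.32e-05) that its other probes repeated at 3.20 and 3.23. Akr1c12, an aldo-keto reductase, differed 11.5-fold, with 11.09 to 11.46 in MI6 and 7.55 to 7.96 in MI7. Nqo1, the quinone reductase, measured 7.46, 8.35, 8.18 and 7.07 in MI6 and 5.81, 5.76, 5.60 and 5.28 in MI7 (2.15 ± 0.27, adjusted p = 0.00188). Calls made up 3.89% of all genes tested, with 1.81% called higher in MI6, and the median of all genes was 0.006. Of 26 measured glutathione and antioxidant genes, 4 were higher in MI6 (Gstm2, Nqo1, Gstp1 and Gstm1) and 1 was higher in MI7, with a median of 0.14. The exception was Gpx3, the secreted glutathione peroxidase, with 5.51 to 6.42 in MI6 and 7.55 to 8.05 in MI7 (-1.85 ± 0.21, adjusted p = 0.00102). The Gstm, Gstp and Akr1c genes have close relatives, and probes of 1 gene may read another, so these are not fully independent measurements.

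The remaining genes among the 15 largest in MI6 had varied roles, and all had an adjusted p of at most 0.0019. Sgip1, an endocytic adaptor, differed by 4.32 ± 0.22, and Nmral1, a redox-sensing protein, by 3.93 ± 0.39. Tns4, a focal adhesion protein of the tensin family, differed by 3.18 ± 0.24 and Aatk, a kinase first found in apoptosis, by 2.81 ± 0.22. Faim2, an inhibitor of Fas-driven death, differed by 2.68 ± 0.16 and Paqr6, a progestin receptor family member, by 2.75 ± 0.31. Paqr6 was detected on 2 of the 4 MI7 arrays and Nmral1 on 3. Detected on no MI7 array were Syn2, the synaptic vesicle protein synapsin II (at least 5.65-fold), Sparcl1, a matricellular protein (at least 3.66-fold), and Pcdha7, a clustered protocadherin (at least 3.70-fold), whose probe may not tell its paralogs apart. These genes thus include several best known from neurons, with no list of such genes tested.

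Milk protein and hormone response genes were called in both directions. Csn1s1, a casein of milk, measured 12.81, 13.71, 13.63 and 12.82 in MI6 and 10.87, 10.57, 10.42 and 8.79 in MI7, 8.46-fold higher in MI6 (3.08 ± 0.39, adjusted p = 0.0019). Of 20 milk and secretory genes with a probe, 10 passed the detection filter. Calls made up 3.89% of all genes tested, with 1.81% called higher in MI6 and 2.08% higher in MI7. Among the 10 milk and secretory genes, 3 were higher in MI7. They were Btn1a1, the butyrophilin of milk fat globules (-1.37 ± 0.14, adjusted p = 0.000648), the lipoprotein lipase Lpl (-1.17 ± 0.21, adjusted p = 0.0127) and Xdh, the xanthine dehydrogenase needed for milk fat secretion (-0.94 ± 0.15, adjusted p = 0.00687). Lpl was detected on 1 of the 4 MI6 arrays, so its level in MI6 lies near the detection limit. The median of the list was -0.04, and -0.20 where all probes of a gene were averaged. Of 11 luminal and hormone response genes, Foxa1 was higher in MI6 and Kit, the receptor of luminal progenitors, higher in MI7, where it measured 12.95, 11.84, 12.04 and 12.24 against 11.26, 10.91, 10.62 and 10.87 in MI6 (-1.35 ± 0.22, adjusted p = 0.00752). Nes, the intermediate filament nestin, was the other called member of 22 stem and progenitor genes beside Kit, and lay higher in MI6 (1.06 ± 0.18, adjusted p = 0.0103).

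On the MI7 side the largest difference was that of Mmp14, and a protease inhibitor and fibronectin were also among the 15 largest. Mmp14, which cleaves collagen at the cell surface and activates other metalloproteases, measured 6.29, 6.38, 5.78 and 6.37 in MI6 and 11.05, 10.91, 11.03 and 11.54 in MI7, a 30.4-fold difference (-4.93 ± 0.21, adjusted p = 2.85e-06 in limma). Timp1, a secreted inhibitor of metalloproteases, measured 6.17, 6.67, 6.15 and 5.58 in MI6 and 9.46, 9.91, 9.59 and 8.53 in MI7 (9.39-fold). It was detected on 3 of the 4 MI6 arrays. The protease and its inhibitor were thus higher in the same line. Among 16 measured metalloproteases, related proteases and inhibitors, 4 were higher in MI7, with Mmp9 and Adam8 as the others, and 1 was higher in MI6, with a median of -0.13 (-0.45 without MI6 replicate 4). Of all genes tested, 3.89% were called and 2.08% were called higher in MI7. Adam8 averaged 5.19 ± 0.14 (SD, n = 4) in MI6, where the lowest detected intensity was 5.58 to 5.68 per array. It thus passed the detection filter through its MI7 arrays alone. Plat, the tissue plasminogen activator, was the one higher in MI6, with 11.03, 11.21, 11.15 and 11.80 against 9.32, 8.73, 9.02 and 9.50 (2.15 ± 0.20, adjusted p = 0.000336). Mmp9 measured 5.84 to 6.08 in MI6 and 8.13, 7.53, 7.56 and 6.38 in MI7 (-1.45 ± 0.30, adjusted p = 0.027). Its call was lost without MI6 replicate 1 or 2 or MI7 replicate 1, 2 or 3, at differences of -1.23 to -1.47 and adjusted p of 0.0753 to 0.104.

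Of 33 mesenchymal genes with a probe, 17 passed the detection filter, with a median of -0.31. The called members were 5, all higher in MI7, beside 3.89% of all genes tested called and 2.08% called higher in MI7. Lox passed the filter through its MI7 arrays alone. Fn1, fibronectin, measured 8.07, 7.33, 6.59 and 6.84 in MI6 and 11.39, 10.20, 10.61 and 9.20 in MI7 (8.81-fold, adjusted p = 0.000926). Lox, a lysyl oxidase that crosslinks collagen, was detected on no MI6 array and measured 7.86, 6.96, 6.55 and 8.11 in MI7, at least 3.33-fold higher, and its relative Loxl1 differed by -2.22 ± 0.24. Twist1, a transcription factor of mesenchymal cells, lay at 7.68 to 7.87 in MI6 and 9.21 to 9.82 in MI7 (-1.74 ± 0.17, adjusted p = 0.000417). The groups of arrays did not overlap for any of these 4. Vim, vimentin, differed by -1.28 ± 0.27 (adjusted p = 0.0287), and its call was lost without MI6 replicate 2, 3 or 4 or MI7 replicate 1 or 4, at differences of -1.09 to -1.34 and adjusted p of 0.0529 to 0.095. The list of 13 fibroblast markers had a mean level of 5.01 to 5.12 over the MI6 arrays and 5.20 to 5.30 over the MI7 arrays. Of these 13, 8 were detected on no array, Col3a1, Pdgfrb, Dcn and Lum among them. Col1a2 was detected on 3 MI6 and 2 MI7 arrays, and Col1a1 and Pdgfra on 1 MI7 array each. Col6a1, a collagen VI chain (at least 2.43-fold), and Gsn, the actin-severing gelsolin (at least 1.25-fold), were detected on all MI7 arrays and no MI6 array. Their part in the mesenchymal differences was not tested. In RNA of whole cultures, fewer cells of a type and less RNA per cell cannot be told apart.

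The called keratins and most called basal genes were also higher in MI7. Krt14, a keratin of basal and myoepithelial cells, measured 9.62, 10.15, 9.88 and 9.63 in MI6 and 11.71, 12.16, 12.03 and 12.31 in MI7 (-2.23 ± 0.17, 4.69-fold, adjusted p = 9.95e-05). Krt17 was detected on no MI6 array and measured 7.30, 7.29, 7.12 and 6.92 in MI7, at least 2.87-fold higher. Krt16, the third called keratin of 10 measured, differed by -1.72 ± 0.36 (adjusted p = 0.0266), and lost its call without MI6 replicate 1 or 4 or MI7 replicate 1 or 3 (differences of -1.50 to -1.56, adjusted p of 0.0719 to 0.096). The keratins of the luminal layer were not called, as Krt8 differed by -0.04 ± 0.11 and Krt18 by -0.08 ± 0.08 (adjusted p = 0.928 and 0.748). Of 18 keratins with a probe, 10 passed the detection filter, with a median of -0.34. Krt17 passed it through its MI7 arrays alone, and Krt16 was detected on 2 of the 4 MI6 arrays. Beside these counts and those of the basal genes, 3.89% of all genes tested were called and 2.08% were called higher in MI7. Of 19 basal and myoepithelial genes with a probe, 8 passed the detection filter, Krt17 and Tpm2 through their MI7 arrays alone. Of the 8, 4 were higher in MI7, namely Krt14, Krt17, Vim and Tpm2, a tropomyosin of contractile cells (at least 2.12-fold). Mylk, the myosin light chain kinase, went the other way (9.64 ± 0.39 in MI6 and 8.42 ± 0.27 in MI7, SD, n = 4). The median of this list, -0.74, moved to -0.42 with no background correction and to 0.02 over members detected on all 8 arrays. Of 28 epithelial junction and identity genes, 1 was called, the tight junction protein gene Cldn1, at 9.51 to 10.20 in MI6 and 10.53 to 11.62 in MI7 (-1.14 ± 0.22, adjusted p = 0.0174, and 0.0516 to 0.0613 without MI6 replicate 1 or 4 or MI7 replicate 1 or 3, where it differed by -0.98 to -1.12). The list's median was -0.11, and -0.22 without MI7 replicate 2.

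**Figure D2:**
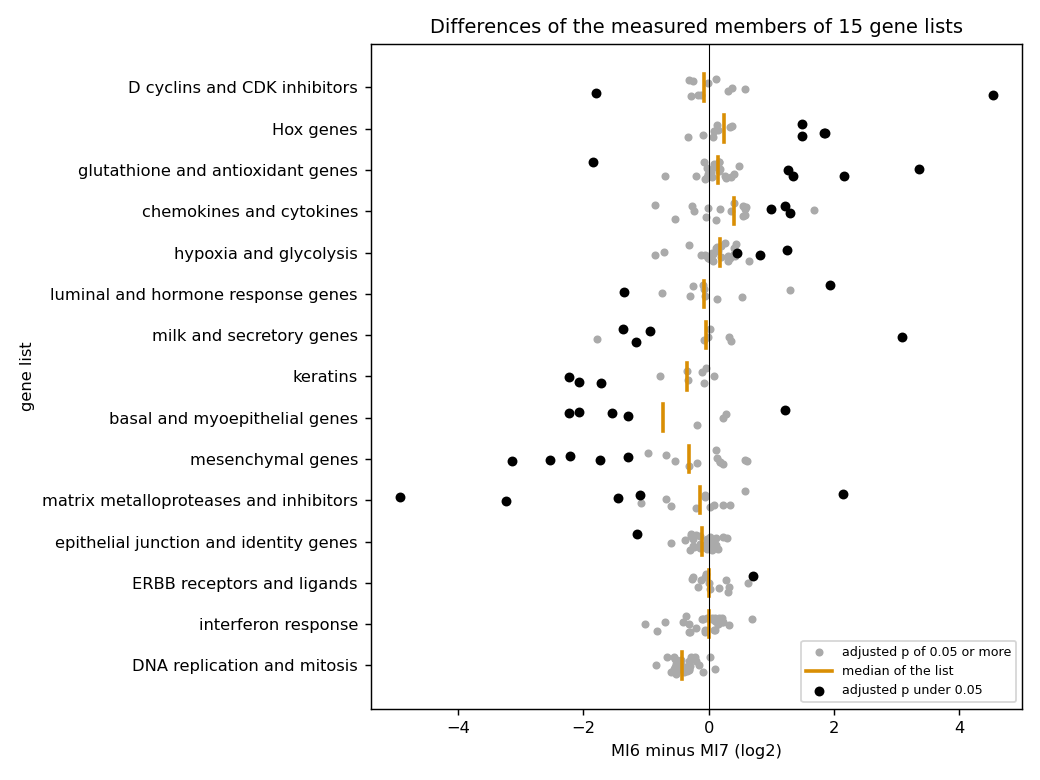
Difference between the lines (MI6 minus MI7, log2, x axis) for the measured members of 15 gene lists (y axis), one point per gene, black where the adjusted p was under 0.05 and grey otherwise, with an orange bar at each list's median. Called members lie on the MI7 side (left) for mesenchymal genes and keratins, on the MI6 side (right) for Hox genes and chemokines, and 28 of 30 DNA replication genes lie left of 0 with 0 called.

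The other genes among the 15 largest in MI7 covered membrane traffic, iron and sulphur metabolism and adhesion, and all had an adjusted p of at most 0.00228. Cavin3, a coat protein of caveolae, measured 4.79, 4.93, 4.78 and 4.86 in MI6, where it was not detected, and 9.03, 9.21, 8.86 and 9.68 in MI7, at least 11.8-fold higher, with -2.55 at its other probe. Heph, the copper-dependent ferroxidase hephaestin, measured 7.27, 7.93, 7.34 and 7.0 in MI6 and 11.90, 11.70, 11.40 and 11.34 in MI7 (18.4-fold), with -1.61, -1.88 and -3.70 at its other probes. Neither gene's arrays overlapped between the lines. Cdo1, which oxidises cysteine, differed by -3.62 ± 0.23 and Pmp22, a tetraspan membrane protein best known from myelin, by -3.25 ± 0.25. Emb, the adhesion protein embigin, differed by -3.04 ± 0.37 and Dgkk, a diacylglycerol kinase, by -3.34 ± 0.44. Cryba4, a lens crystallin, differed by -3.85 ± 0.25 and the zinc finger gene Zfp251 by -3.67 ± 0.18. The rest were Pxdc1 (-4.09 ± 0.25), Prr33 (-2.83 ± 0.16), Eva1b (-2.79 ± 0.23) and Emid1, which was detected on no MI6 array and was at least 4.15-fold higher in MI7. Pxdc1, Cryba4, Cdo1 and Prr33 were each detected on 2 of the 4 MI6 arrays and Zfp251 on 3, so their MI6 levels lie near the detection limit. Inhba, the activin A subunit, was the called member of 19 TGF-beta, activin and BMP genes, at 8.77 to 8.83 in MI6 and 9.87 to 10.65 in MI7 (-1.50 ± 0.19, adjusted p = 0.00171). Wnt10a, a secreted Wnt ligand, was the called member of 17 Wnt pathway genes and was at least 2.32-fold higher in MI7, undetected in MI6.

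Chemokine and hypoxia genes had 3 calls each in the main fit, all of them higher in MI6. Of all genes tested, 3.89% were called and 1.81% were called higher in MI6. With the same-order block, which is no known pairing, limma called 9 members of each list, 2 of each higher in MI7. Of 19 measured chemokines and cytokines, 3 were higher in MI6 and 10 passed an unadjusted p under 0.05, as did 14.5% of all genes tested (8.10% higher in MI6 and 6.45% higher in MI7). Cxcl1, a neutrophil attractant, measured 14.00, 14.27, 14.39 and 14.56 in MI6 and 13.30, 12.70, 12.72 and 13.64 in MI7 (1.22 ± 0.20, adjusted p = 0.00852). Il23a, a subunit of interleukin 23, measured 11.29, 11.65, 11.30 and 10.55 in MI6 and 10.08, 9.98, 9.79 and 9.75 in MI7 (1.30 ± 0.18, adjusted p = 0.00304). The median of the list was 0.40, and without MI7 replicate 4 it was 0.25. The third, Ccl25, was called at adjusted p = 0.0418 and lost its call when any of 6 arrays was left out, all 4 of MI6 and MI7 replicates 1 and 3 (differences of 0.84 to 1.09, adjusted p of 0.0667 to 0.148). Of 28 hypoxia and glycolysis genes, 3 were higher in MI6, with a median of 0.18. Car9, a carbonic anhydrase induced by hypoxia, measured 11.05, 10.56, 10.86 and 11.52 in MI6 and 9.59, 9.51, 9.57 and 10.33 in MI7 (1.25 ± 0.21, adjusted p = 0.00956). Egln3, a prolyl hydroxylase that marks hypoxia-inducible factors, measured 14.08 to 14.43 in MI6 and 13.42 to 13.68 in MI7 (0.82 ± 0.11, adjusted p = 0.0023). The muscle-type phosphofructokinase gene Pfkm (0.46 ± 0.10, adjusted p = 0.04) lost its call whichever of the 8 arrays was left out (adjusted p of 0.0602 to 0.15). Igfals, a subunit of circulating IGF complexes, was higher in MI6 by 1.56 ± 0.13 (adjusted p = 0.00015), and Lcp1, an actin-bundling protein of white blood cells, by 1.79 ± 0.18 (adjusted p = 0.00053). Another immune marker, Csf1r, was also detected on all 8 arrays, with means of 6.25 in MI6 and 6.29 in MI7. The other 10 of the 12 immune markers, Ptprc, Cd3e and Itgam among them, were detected on no array.

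The mouse receptors of the family that the transgene belongs to were not called. The mouse Erbb2 probe measured 9.11, 8.97, 9.01 and 9.18 in MI6 and 9.39, 9.03, 9.17 and 9.18 in MI7 (-0.12 ± 0.14, adjusted p = 0.779). The arrays overlapped, and no file tells if this probe also reads the transgene, so it is no check of the labels. Egfr differed by -0.25 ± 0.15 (adjusted p = 0.518) and Erbb3 by -0.17 ± 0.27 (adjusted p = 0.85), and Erbb4 was detected on 0 of the 8 arrays. Of 14 measured ERBB receptors and ligands, Hbegf, an EGFR ligand, was called (0.72 ± 0.16, adjusted p = 0.0435). Its other probe differed by 0.01 ± 0.32, and the call was kept only without MI7 replicate 1, since it was lost without any of the other 7 arrays (differences of 0.58 to 0.75, adjusted p of 0.0891 to 0.124). No member was called by limma among 23 MAPK feedback and immediate early genes (2 at an unadjusted p under 0.05), 16 PI3K, AKT and mTOR genes (7) or 6 SRC family kinases (0). The same held for 16 p53 targets (3), 20 respiratory chain subunits (2), 16 unfolded protein response genes (2), 16 integrins and laminins (2) and 12 Notch pathway genes (1). With the same-order block, limma called 1 MAPK gene, 1 PI3K gene and 2 Notch genes, and 0 in the other 5 lists. Over all genes tested, 14.5% passed an unadjusted p under 0.05 in limma. Of these lists, that of PI3K, AKT and mTOR genes lay furthest above that share, with 7 of 16 members, and 8 with the same-order block. These counts do not show that the pathways were alike. Over all lists, 55 of 566 measured members were called, a gene being counted in each list it belongs to, beside 3.89% of all genes tested. The lists were chosen with earlier results of these data known, so a higher share among their members is no result.

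Proliferation and interferon genes varied between arrays of a line by more than between the lines. The mean of 30 measured DNA replication and mitosis genes was 9.38, 10.52, 10.50 and 8.79 on the MI6 arrays and 10.11, 10.64, 10.58 and 9.42 on the MI7 arrays. Arrays 2 and 3 were high in each line and array 4 low. Of the 30 genes, 28 had the higher mean in MI7 and the median difference was -0.43, and limma called 0 (1 at an unadjusted p under 0.05). With arrays at the same order on a BeadChip as a block, 7 of the 30 were called, all higher in MI7, and the list mean was higher in MI7 for each array number. The mean of 28 interferon response genes ran the other way over the arrays, at 8.40, 8.03, 7.95 and 9.70 in MI6 and 8.70, 8.26, 8.11 and 9.32 in MI7, highest on array 4 of each line. Its median difference between the lines was 0.01, with 0 called by limma and 0 at an unadjusted p under 0.05. With the same block 4 of the 28 were called, 3 of them higher in MI7. The mean of the mesenchymal list was 8.30, 7.83, 7.80 and 8.01 in MI6 and 8.91, 8.46, 8.52 and 8.76 in MI7, and that of the keratins 9.63, 10.03, 9.89 and 9.53 against 10.53, 10.56, 10.55 and 10.49, with no overlap between the lines. Called members with large differences weigh in these means, some of them undetected in MI6 (Lox and Krt17), and 7 of the 17 mesenchymal genes and 1 of the 10 keratins had the higher mean in MI6. With the DNA replication mean added as a covariate, a choice made after seeing the data, 614 genes were called, and without array 4 of each line 350.

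**Figure D3:**
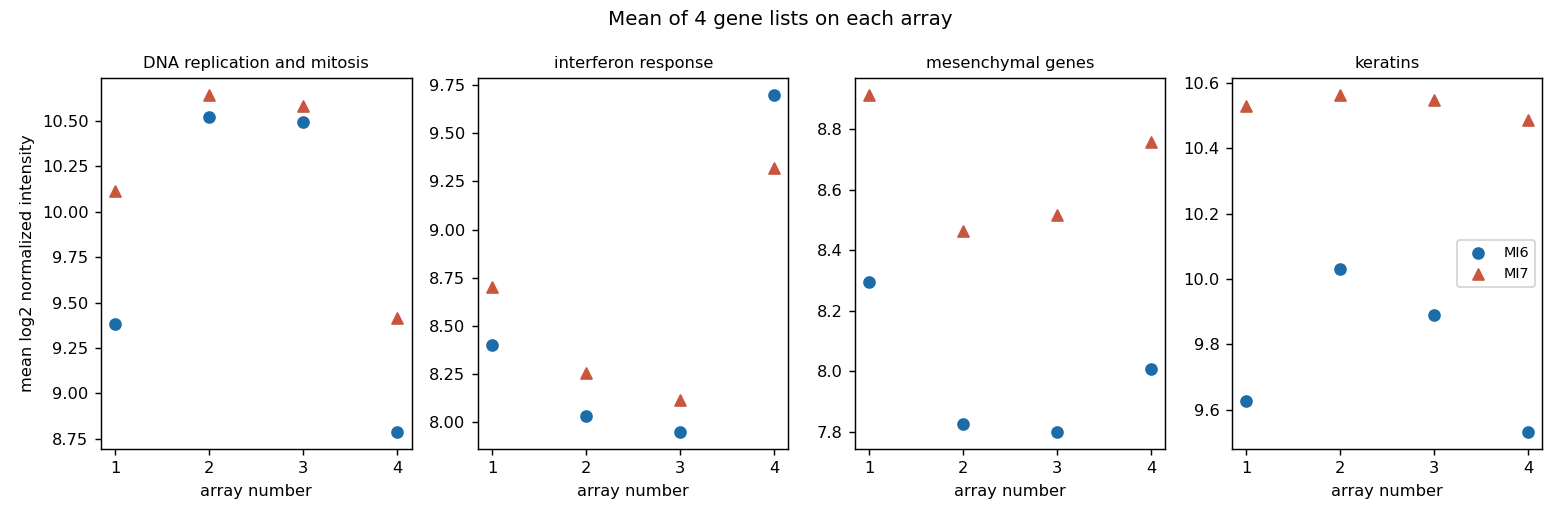
Mean log2 normalized intensity (y axis) of the measured members of 4 gene lists on each array (x axis, array number, where arrays 1 and 2 are on BeadChip 1 and arrays 3 and 4 on BeadChip 2), with circles for MI6 and triangles for MI7. The means of the DNA replication and interferon lists shift with the array number in both lines, while those of the mesenchymal list and the keratins lie higher on every MI7 array than on any MI6 array.

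Differences on the BeadChips were also set side by side. Over all 9907 genes, 6945 (70.1%) had the same sign on each and the differences correlated at r = 0.794. The called genes were chosen on both chips together, which favours a shared sign. All 385 had the same sign on each, and of the 260 called with at least 2-fold differences, 228 were at least 2-fold on each chip alone. Across those 260 genes, which are not independent replicates, the difference on BeadChip 1 and that on BeadChip 2 correlated at r = 0.980. Cdkn2b differed by 4.22 on BeadChip 1 and 4.85 on BeadChip 2, and Mmp14 by -4.65 and -5.21. A term for a line difference that changed between the BeadChips, added after seeing the data, passed for 0 genes in limma, with 26 at an unadjusted p under 0.05.

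**Figure D4:**
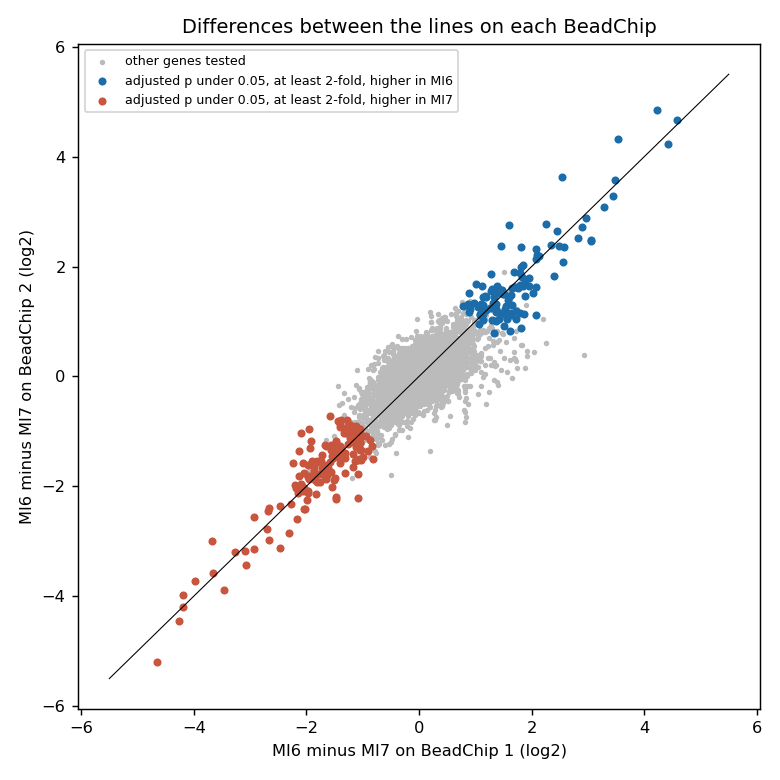
Difference between the lines (MI6 minus MI7, log2) on BeadChip 2 (y axis) against that on BeadChip 1 (x axis), one point per gene tested, in blue or red where the gene was called with at least 2-fold higher levels in MI6 or in MI7, with the line of equal values. The coloured points lie along that line, with r = 0.980 over 260 genes.

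The WT HER2 lines did not side as a block with MI6 or MI7. Of the 106 genes at least 2-fold higher in MI6, the mean of MI6 was at least 2-fold above each of the other 3 lines for 45, and that of MI7 at least 2-fold below each for 24. Both WT lines were nearer to MI6 for 26 of the 106 and nearer to MI7 for 51, and they split over the other 29. Of the 154 genes at least 2-fold higher in MI7, MI6 was at least 2-fold below the other 3 lines for 52, and MI7 at least 2-fold above them for 40. Here both WT lines were nearer to MI6 for 47, nearer to MI7 for 59 and split for 48. Tfap2b averaged 5.0 ± 0.13 (SD, n = 4) in WTHER2-1 and 9.78 ± 2.00 in WTHER2-2, so the WT lines split as MI6 and MI7 did. Fn1 averaged 12.21 ± 0.47 in WTHER2-1 and 14.45 ± 0.24 in WTHER2-2, so MI6 was the low line of all 4. Heph was the reverse, with 6.66 ± 0.44 and 4.93 ± 0.12, so MI7 was the high line of all 4. Akr1c12 averaged 6.69 ± 0.68 and 6.56 ± 1.63, below both lines compared here. The WT lines were on BeadChips of their own, and the wide SD of WTHER2-2 for several genes marks a spread between its arrays, so these levels are given without a test.

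**Figure D5:**
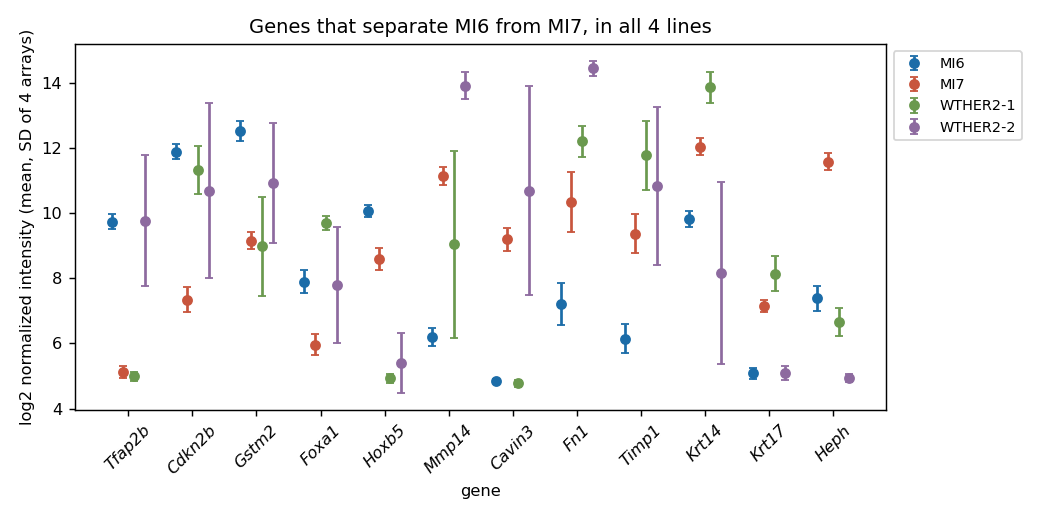
Log2 normalized intensity (y axis, mean with SD of 4 arrays) of 12 genes (x axis) in MI6, MI7, WTHER2-1 and WTHER2-2. MI6 is lowest for Fn1 and Timp1 and MI7 is highest for Heph, while WTHER2-2 is near MI6 for Tfap2b and WTHER2-1 near MI7.

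Some of the genes that separate the lines are neighbours on the chromosome. In the order of 9890 tested genes along GRCm38.p6, called genes with at least 2-fold differences lay next to each other in 15 pairs, 10 of them in the same direction. Such genes were 2.62% of all genes tested, and the number of pairs to be had by chance was not worked out. These pairs included Hoxb7, Hoxb6 and Hoxb5, higher in MI6, and Krt14, Krt16 and Krt17, higher in MI7. Gstm2 with Gstm1, Gstp1 with Gstp3, and Cyp2d10 with Cyp2d9 were further pairs higher in MI6. Neighbours of 1 gene family, the keratins and kallikreins included, may share probe signal. Klk10 and Klk8, of the kallikrein protease family, were both higher in MI7 (-1.90 and -1.58). Neighbours could also differ in direction, as with Car9 (1.25) and Tpm2 (-1.54) or Nes (1.06) and Crabp2 (-1.05). Over windows of 15 neighbouring genes the median difference ran from -0.31 to 0.37, with a median of 0.006. The highest window, from Zswim5 to Ipo13, held 2 called genes, Btbd19 (1.16 ± 0.15, with 2.02 ± 0.17 at its other probe and 1.91 without MI7 replicate 4) and the polo-like kinase gene Plk3 (0.86 ± 0.16, whose call was lost without MI6 replicate 2, at 0.79 and adjusted p = 0.0609). The next, from Abitram to Mup6, held 1, Mup6 (1.10 ± 0.18), a major urinary protein gene with near-identical copies. The lowest, from Prxl2c to Zfp748 (-0.31) and from Enox2 to Mmgt1 (-0.30), held 0 genes called by limma.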

How the data were processed

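RNA was extracted with Trizol, cleaned on a column with DNase and copied into biotin-labelled cRNA, per the labels' protocols. The authors deposited raw intensity per probe with a detection p-value, per the file headers, and a normalized intensity table on a linear scale, uncentred, whose arrays had medians of 108.4 to 108.5. Each of its columns ranked the probes as the raw intensities did. Per the submitters' processing notes, BeadStudio was used, with no version given.

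Raw medians were 91.8 to 104.8. Background was corrected with limma 3.58.1 (R 4.3.3) by normexp with negative controls inferred from detection p-values and an offset of 16, then all 16 arrays were quantile-normalized and log2 values taken. The second step removes a shift shared by most genes, and the offset pulls dim differences towards 0. Probes with a detection p under 0.05 on at least 4 of the 8 arrays were kept (18299), and a gene was represented by its brightest probe. Probe annotation gave 34885 probes 1 symbol, 18 several and 10378 none, and 34807 matched a gene table by gene ID. The fit was limma's lmFit and eBayes with an intensity trend on the 8 arrays, with line and BeadChip as terms and Benjamini-Hochberg adjustment over 9907 genes. Arrays of the WT lines were left out of the fit. A fold "at least" compares the mean of the bright line with, per array of the dim line, the higher of the lowest detected intensity and the probe's own. Where only some arrays of the dim line were detected, the difference is given as fitted, with undetected values in it.

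The genes named were the 15 largest in each direction (adjusted p under 0.05, at least 2-fold, same sign on both BeadChips), up to 4 called members of each of 42 gene lists or the largest where none was called, the ERBB receptors and called members of the extreme chromosome windows. Other genes in the text, such as the marker genes, the luminal keratins and neighbour pairs, were chosen after their values were seen. The lines and lists were chosen with earlier results of these data known. The fit was tested on simulated data. Alternatives covered background, normalization, detection filter, probe choice, array weights, blocks and each array left out.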

Additional observations from a re-analysis of the deposited data

Results flagged for a closer look

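In 272 groups of 4 arrays (the named genes and the list means in each line), 8 had 1 array set apart from the other 3 by Dixon's ratio over 0.829. Chance flags about 1 in 20 groups.

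Tfap2b in MI6 was 9.39 on replicate 1 against 9.86 on the other 3 arrays, and Mmp14 in MI6 was 5.78 on replicate 3 against 6.29 to 6.38. Pcdha7 in MI6 was 7.97 on replicate 4 against 7.32 to 7.41. On MI7 replicate 4, Tns4 was 8.14 against 6.89 to 7.10, Car9 10.33 against 9.51 to 9.59, Egln3 13.68 against 13.42 to 13.45, and the endothelial marker Tek 5.78 against 5.52 to 5.55. The mean of the 6 SRC family kinases in MI6 was 9.35 on replicate 1 against 9.06 to 9.10. Tfap2b, Mmp14, Pcdha7, Tns4, Car9 and Egln3 were called in each of the 8 fits that left out 1 array.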

How the results depend on the processing

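No called difference of a named gene turned its sign. Among 2286 combinations of a named gene and an alternative, 16 turned, in 5 genes that were not called. Xist (0.19) was -0.44 within BeadChip 2, -0.055 with array weights and -0.31 to 0.48 with each array left out. Des (0.04) was -0.071 within BeadChip 1, -0.0053 with array weights, -0.077 without array 4 of each line and -0.035 to 0.11 with each array left out. Lep (-0.01) was 0.12, 0.066 and 0.049 in the same 3 fits and -0.077 to 0.040 with each array left out. Erbb3 (-0.17) was -0.39 to 0.061 with each array left out, and Slc4a11 (-0.96) was 0.058 among probes detected on all 8 arrays. The count of 385 genes was 114 within BeadChip 1, 22 within BeadChip 2, 254 among probes detected on all 8 arrays and 160 in the fit of 4 lines. It was 1051 with arrays at the same order on a BeadChip as a block, 1023 with array weights (whose estimate did not fully converge) and 614 with the added DNA replication covariate. The count of 260 at least 2-fold genes was 112, 22, 156 and 127 in the first 4 of these fits, and 153 both in the authors' normalized table and without background correction, all 153 of them among the 260 in each. The 30 largest genes fell to 17 called within BeadChip 2 and 16 among probes detected on all 8 arrays. Called list members went from 55 to 26 and 4 within the BeadChips, 33 among probes detected on all 8 arrays, 15 in the fit of 4 lines, 117 with the same-order block, 111 with array weights and 90 with the covariate. The line's share of the sum of squares, 36.3%, was 48.8% and 41.8% within the BeadChips, 31.9% among probes detected on all 8 arrays and 47.4% without array 4 of each line (added). In windows of 25 genes the Zswim5 window was 0.25 and the Abitram window 0.12. The smaller counts within a BeadChip come with 4 arrays in place of 8, and those of the detection filter with fewer genes. The cause of the other shifts was not tested.

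Leaving out each array in turn gave 278 to 358 genes, 222 to 273 at least 2-fold, 30 to 30 of the largest, 44 to 57 list members and a share of 35.4% to 42.7%. Of 79 named genes called, 65 kept their call throughout, and 14 lost it in at least 1 of these fits. Among those not detailed above, Hspb8 (0.60) lost it without any array, Hspb1 (-0.60) without any but MI7 replicate 2, Hp (-1.14) without MI6 replicate 1 or 2 or MI7 replicate 1, 2 or 3 (-1.03 to -1.12), Saa1 (-0.77) without MI6 replicate 1 or 2 or MI7 replicate 2, 3 or 4 (-0.70 to -0.82), Igfbp3 (-0.87) without MI6 replicate 1, 3 or 4 or MI7 replicate 2 or 3 (-0.78 to -0.82), and Igfbp4 (0.63) without MI6 replicate 2 (0.60). Calls were gained without MI6 replicate 4 for Ddit4 (-1.06) and Oas1g (-1.58) and without MI7 replicate 4 for Slc4a11 (-1.37). Of 805 list medians under an alternative, 44 moved by over 1 SD.

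The arrays were numbered in accession order, so equal numbers pair nothing in the design, and the same-order block is no known pairing. As a hint from the data only, deviations from the line means of arrays with equal numbers correlated at 0.23, 0.49, 0.54 and 0.70, and each MI6 array correlated best with its own number. The number of arrays limits the precision, and probes near background give only bounds.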

Other observations

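Of the 2621 probes that passed the filter without a single gene symbol, 54 were called and 36 of them differed at least 2-fold, and they were left out of all gene counts. Xist, the RNA that silences an X chromosome in female cells, was detected on all 8 arrays, at 12.55, 12.24, 12.61 and 11.81 in MI6 and 10.64, 12.50, 12.87 and 12.43 in MI7. It differed by 0.19 ± 0.41 (adjusted p = 0.895 in limma), and MI7 replicate 1 was the lowest of the 8.

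Among genes undetected in one line and called with at least 2-fold higher levels in the other, 14 were detected in MI6 and 32 in MI7. They belong to the 106 (1.07% of genes tested) and 154 (1.55%) called at least 2-fold higher in those lines. Such genes could pass the detection filter only through the line where they were high, so the counts do not measure how line-specific expression was.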
